A study of Mus musculus with 3 samples.

Results

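The genes that take up, store and export iron were followed in single cells of the mouse intestinal epithelium. Of the 51912 genes counted, 8 were taken as a set and matched by gene symbol: Slc40a1, Cybrd1, Slc11a2, Heph, Fth1, Ftl1, Tfrc and Hmox1. All 8 were found. The single-cell RNA sequencing (scRNA-seq) data comprised 3 libraries, each from mice that carried VillinCreERT2, a Cre recombinase driven by the Villin promoter of the intestinal epithelium and switched on by tamoxifen. The libraries Arid3a cKO 1 and Arid3a cKO 2 also carried floxed alleles of Arid3a, a DNA-binding transcription factor (Arid3a fl/fl). The third library, WT, carried the Cre alone. Animals of both groups received tamoxifen at 8 to 10 weeks of age and were harvested 1 month after the first injection, and live crypt cells positive for Epcam and negative for CD45 and CD31 were sorted. The labels name the tissue only as intestine, while the study's methods refer for the dissociation of crypts to a protocol that takes them from the proximal jejunum. The model removes Arid3a from epithelial cells only.

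Iron from food is reduced at the brush border of the enterocyte, carried into the cell by a divalent metal transporter, and either stored in ferritin or passed to the blood by ferroportin, the only known iron exporter of mammalian cells. Dividing crypt cells instead take iron from the blood through the transferrin receptor. Several of these transcripts hold an iron-responsive element (IRE), a short hairpin bound by the iron regulatory proteins when iron is scarce: in a 5′ untranslated region (UTR) the bound hairpin blocks translation, and in a 3′ UTR it protects the transcript from decay. Transcript counts therefore describe only part of the output of these genes.

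The IREs of the members are shown because their place, in the 5′ or the 3′ UTR, decides by which of these routes a transcript is known to be controlled. They were searched in the UTRs of GENCODE M21 on GRCm38, on the transcript's strand, as a C, then NNNNN, then the loop CAGTGN and another NNNNN, in which the 5 bases before the loop pair with the 5 after it (G-T pairs allowed). Capitals mark the unpaired C and the loop of 6 bases. At least 1 such element was found in the 5′ UTR of 31 of 20597 genes (0.151%) and in the 3′ UTR of 129 of 20995 genes (0.614%). Among the members, Slc40a1, Fth1 and Ftl1 each held 1 in the 5′ UTR, at chr1:45925464-45925493 (minus strand), chr19:9982732-9982761 (plus strand) and chr7:45459778-45459807 (minus strand).
Slc40a1: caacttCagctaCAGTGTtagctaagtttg
Fth1: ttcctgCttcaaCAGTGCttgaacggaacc
Ftl1: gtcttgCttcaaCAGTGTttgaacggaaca
Tfrc held 4 in its 3′ UTR, at chr16:32631219-32631248, chr16:32631598-32631627, chr16:32631663-32631692 and chr16:32631710-32631739, all on the plus strand and listed here in that order.
Tfrc element 1: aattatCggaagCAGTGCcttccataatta
Tfrc element 2: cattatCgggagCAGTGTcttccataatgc
Tfrc element 3: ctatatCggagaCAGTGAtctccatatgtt
Tfrc element 4: aattatCgggaaCAGTGTttcccataattt
Cybrd1, Slc11a2, Heph and Hmox1 held no match to these letters in the windows searched. The search asks for 5 unbroken pairs, so an element with an unpaired or bulged base in its stem would be missed. The lack of a match is therefore not read as a lack of an element or of control by iron in these genes. Each counted read lies near the 3′ end of its transcript, so transcripts of Slc40a1 that begin at different first exons were counted together.

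Levels are given as CPM: unique molecular identifiers (UMIs, tags that mark each captured transcript) of a gene per 1000000 UMIs, both summed over the cells of a library. The matrices held 94614297 to 129243053 UMIs per library. Cells with at least 1000 genes and at most 15% mitochondrial UMIs were kept, which left 2134, 1550 and 1910 cells in Arid3a cKO 1, Arid3a cKO 2 and WT, with median depths of 29895 to 35764 UMIs. Any pair of libraries shared 11 to 18 barcodes, of which 0 to 2 were kept in both. Arid3a itself stood at 0.592, 0.894 and 2.57 CPM in that order. The reads cover the 3′ end and the deleted exons were not known here, so these values are only a partial check of the genotype. One heat shock gene, Hsph1, stood apart in WT (9.32, 11.3 and 61.1 CPM in enterocyte-like cells), while the 7 other stress genes examined passed no test in those cells. In ISC-like and TA-like cells 3 of the 8 stress genes were lower in Arid3a cKO by edgeR, beside 80 of all 5602 genes tested there. They were Hsph1 (49.8, 64.3 and 179 CPM), Hspa1b (56.5, 65.0 and 84.2) and Hspa1a (52.4, 52.1 and 70.2). The part of this difference in the results below was not tested. Clusters were built without the members and without the other iron genes named below, and were called after fixed marker lists. The enterocyte-like cells were 3 clusters led by S100g, Ms4a18 and Dnase1. The ISC-like (intestinal stem cell) cluster was led by Olfm4 and the TA-like (transit-amplifying) cluster by Hist1h1b. Top genes of the ISC-like cluster (868 cells) also included the DNA replication genes Mcm3 and Mcm6, the latter a marker on the TA list. At resolution 0.8 the ISC-like cluster held 385 cells, and a cluster of 478 cells led by Ung stayed unnamed. ISC-like levels below are therefore not read as those of stem cells alone. Clusters led by Car4, Gm42418 and Ghrl stayed unnamed. Levels per cluster below are the mean over the 3 libraries ± SD (n = 3) and are descriptions, since the clusters come from the same cells.

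Slc40a1 (ENSMUSG00000025993, chromosome 1, 45908068 to 45926523, minus strand), which encodes ferroportin, was concentrated in the S100g cluster. Its level there was 324 CPM in the first cKO library, 316 in the second and 278 in WT, a mean of 306 ± 24.7 CPM, and the range did not overlap that of any other cluster. Next came the Gm42418 cluster (95.2 ± 64.4 CPM), the Car4 cluster (68.1 ± 13.4), the Ms4a18 cluster (62.2 ± 16) and the Ghrl cluster (52.7 ± 14.2), with ranges that overlapped from each to the next. The Gm42418 cluster had a median of 15243 UMIs and 11.7% mitochondrial UMIs, with 7 of 8 immune markers raised. Its level is not read as that of an epithelial cell type. The Dnase1 enterocyte-like cluster lay far lower, at 20.4 ± 5.85 CPM, overlapping the TA-like cluster (13.8 ± 4.16). Levels in the ISC-like (8.46 ± 2.71) and goblet-like clusters (8.17 ± 3.60) overlapped each other. The Paneth-like cluster held the least, 1.75 ± 1.18 CPM.

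The same contrast was seen cell by cell. With each cell thinned to 10000 UMIs, Slc40a1 was seen in 87.1%, 90.8% and 84.1% of the S100g-cluster cells of Arid3a cKO 1, Arid3a cKO 2 and WT (94.9%, 97.7% and 97.3% before thinning). In goblet-like cells, taken as a type that should lack the exporter, it was seen in 5.88%, 7.48% and 3.48% after thinning (12.1%, 11.5% and 9.09% before). The median depth was 34358, 37345 and 32006.5 UMIs in the S100g cluster and 23753.5, 30588 and 26179 in goblet-like cells, and thinning left out 1 to 3 and 24 to 39 cells per library. The shares in ISC-like cells were 5.88%, 6.02% and 6.10%. They equalled the goblet-like share in Arid3a cKO 1, lay below it in Arid3a cKO 2 and above it in WT. Before thinning they were 14.5%, 18.3% and 10.8%, above the goblet-like shares in each library. Whether the ISC-like counts are background was not settled, and the lack of the exporter in goblet cells was assumed, not tested. Shares in TA-like cells, 12.6%, 12.7% and 7.03%, lay above the goblet-like share in each library.

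The uptake genes of the brush border followed different orders. Slc11a2 (chromosome 15, 100387898 to 100425072, minus strand) encodes the divalent metal transporter DMT1. It was highest in the S100g cluster, at 84.2, 66.1 and 98.2 CPM in the 3 libraries (mean 82.8 ± 16.1), with no overlap with the next cluster. The Ms4a18 (41.1 ± 1.49 CPM), Car4 (39.3 ± 2.01) and Dnase1 clusters (38.4 ± 7.79) overlapped, above the TA-like (22.9 ± 1.67) and ISC-like clusters (19.9 ± 1.95). Cybrd1 (chromosome 2, 71117923 to 71142926, plus strand) encodes the ferric reductase of the duodenal brush border and was scarcely detected, with 44, 83 and 88 UMIs over all kept cells of Arid3a cKO 1, Arid3a cKO 2 and WT. Few cells held most of them in 2 libraries: 3 cells had 58 of the 83 UMIs in Arid3a cKO 2, and 1 cell had 51 of the 88 in WT. No order of Cybrd1 over cell types was read from these counts.

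Heph (chromosome X, 96455359 to 96574485, plus strand) encodes hephaestin, the ferroxidase that works beside ferroportin at the basolateral membrane. Unlike Slc40a1, its level was alike in the S100g (141 ± 13.1 CPM) and Dnase1 clusters (138 ± 4.07), whose ranges overlapped. The tuft-like cluster had the highest mean, 180 ± 68.9 CPM, but its range over the libraries (107 to 244 CPM) enclosed both of those clusters. The Ms4a18 cluster followed at 99.9 ± 1.70 CPM and the Car4 cluster at 49.3 ± 0.482. Levels in ISC-like (18.8 ± 3.03) and TA-like cells (17.1 ± 0.781) overlapped.

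Ferritin stores iron in a shell built of heavy and light chains. Fth1 (chromosome 19, 9980598 to 9985098, plus strand), the heavy chain, stood at 44035, 46602 and 38279 CPM in the S100g cluster of Arid3a cKO 1, Arid3a cKO 2 and WT. Its mean there, 42972 ± 4262 CPM, compared with 19440 ± 3298 in the Dnase1 and 19013 ± 2298 in the Ms4a18 cluster, which overlapped each other. The TA-like (4892 ± 453) and ISC-like clusters (4491 ± 423) were lower and overlapped. Ftl1 (chromosome 7, 45457944 to 45459884, minus strand), the light chain, ran in the same order over the enterocyte-like clusters with smaller steps: 1894 ± 132 CPM in the S100g, 1625 ± 43.4 in the Dnase1 and 1410 ± 49.0 in the Ms4a18 cluster. Its ISC-like (773 ± 18.8) and TA-like levels (698 ± 25.03) did not overlap. Reads of Ftl1 may be split with its near-identical copy Ftl1-ps1, which was counted at 24.1 to 31.0 CPM over all kept cells.

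Tfrc (chromosome 16, 32608920 to 32632794, plus strand), the transferrin receptor, ran the other way. Its level was 197 ± 4.56 CPM in the ISC-like cluster, 196 ± 3.82 in the TA-like cluster and 177 ± 27.2 in the Car4 cluster, with overlapping ranges. It fell away to 63.2 ± 16.8 in the Ms4a18 cluster, 16.7 ± 4.55 in the Dnase1 cluster and 10.6 ± 0.744 in the S100g cluster, the lowest mean of the 12 clusters, with a range inside that of the Paneth-like cluster (5.90 to 20.3 CPM). After thinning, Tfrc was seen in 79.1%, 81.9% and 78.6% of ISC-like cells and in 10.3%, 7.69% and 6.54% of S100g-cluster cells (93.8%, 97.3% and 94.9%, and 25%, 23.3% and 25.5%, before it). Hmox1 (chromosome 8, 75093621 to 75100589, plus strand) encodes the oxygenase that frees iron from haem. Only 21 to 26 UMIs per library were counted. The tuft-like cluster had the highest mean, but it rested on 4, 1 and 3 UMIs, and no order was read.

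**Figure D1:**
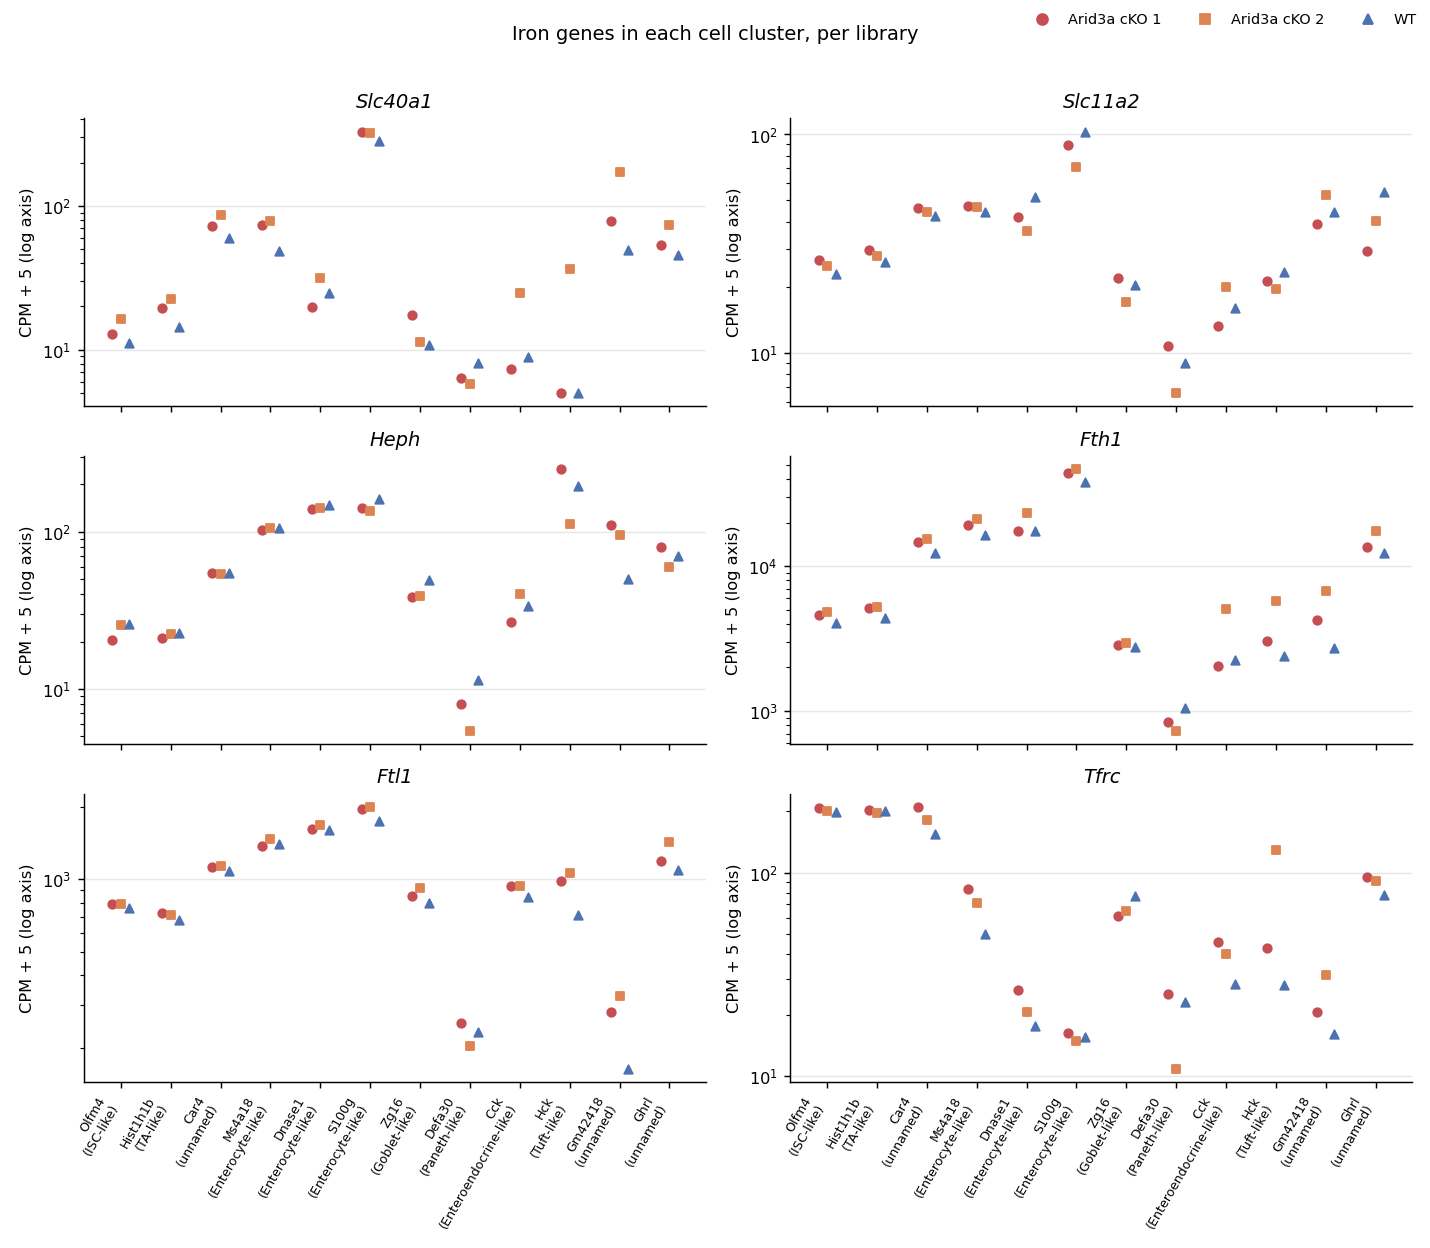
Levels of 6 members as CPM + 5 on a log axis in each cell cluster, with 1 point per library. Slc40a1, Slc11a2, Fth1 and Ftl1 were highest in the S100g cluster, where Tfrc had its lowest mean, 10.6 ± 0.744 CPM (SD, n = 3), overlapping the Paneth-like cluster.

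Across 33 profiles of cluster and library with at least 20 cells, the genes whose log2 levels ran most like those of the members were noted as a description. The profiles share libraries and cell totals and are not independent. The highest Pearson r with Slc40a1 were those of S100g (0.94), a calcium-binding protein of the proximal intestine, Sult6b2 (0.93) and Alpi (0.90), the intestinal alkaline phosphatase. Slc11a2 ran most like Slc25a15 (0.93), Ugt2b5 (0.91) and Nqo1 (0.91), Heph most like Optn, Dock8 and Crot (each 0.95), and Fth1 most like Marc2 (0.97), Tm6sf2 and Vmp1 (each 0.96). Ftl1 ran most like Atp6v0e (0.96), Trappc2l (0.95) and Pin4 (0.94), and Tfrc most like Rpsa (0.95), Wdr89 (0.95) and C1qbp (0.94). Between members, Slc40a1 had an r of 0.87 with Slc11a2, 0.81 with Fth1, 0.47 with Heph and -0.21 with Tfrc.

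**Figure D2:**
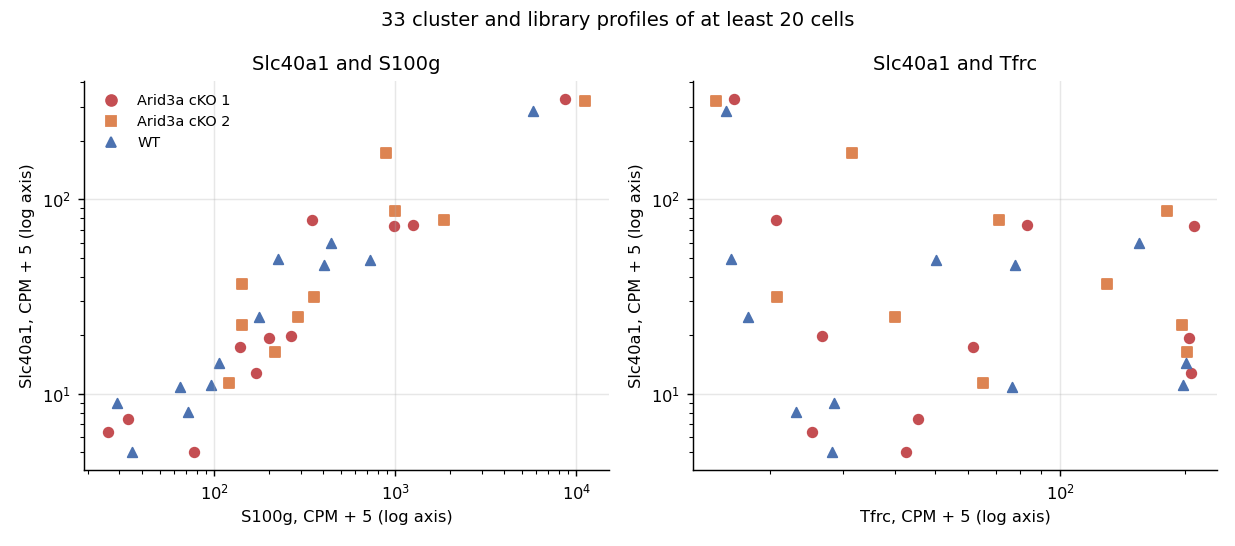
Level of Slc40a1 against that of S100g (left) and Tfrc (right), as CPM + 5 on log axes, with 1 point per cluster and library of at least 20 cells. Slc40a1 rises with S100g (r of 0.94 on the log2 scale over 33 profiles) and not with Tfrc (r of -0.21).

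To ask how the loss of Arid3a bore on iron handling, the Arid3a cKO libraries were compared with WT by edgeR's quasi-likelihood test on UMIs summed per library, with Benjamini-Hochberg adjustment over all genes of at least 20 CPM on average. Fold changes below are cKO over WT. With 1 WT library, its spread is assumed to equal that of the cKO libraries, and spread was seen between the 2 cKO libraries alone. edgeR moderates this spread over all genes. The weight of the shared spread (median prior degrees of freedom) was 19.6 in all kept cells and 90.1 in enterocyte-like cells. It was infinite in ISC-like plus TA-like cells. The p-values thus rest mostly on spread borrowed from other genes, hold for these 3 samples alone and do not measure the spread of WT. In enterocyte-like cells 2 members rose in Arid3a cKO, Slc40a1 and Tfrc, and none of the other 4 tested passed. Of all 4728 genes tested there, 2.47% were called higher and 5.6% were called in either direction. In all kept cells only Slc40a1 of 6 tested members was called (background 0.862% higher, 2.14% either way), and in ISC-like and TA-like cells together none of 4 was called (background 2.12%), with 0 also at an unadjusted p under 0.05. DESeq2's Wald test called 1 member, 1 member and 0 members in enterocyte-like, all and ISC-like plus TA-like cells.

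In enterocyte-like cells Slc40a1 stood at 97.6 CPM in Arid3a cKO 1 (95% Poisson interval 93.7 to 102, counting error only). Arid3a cKO 2 had 108 CPM (103 to 113), and the WT library 69.9 (66.3 to 73.6). WT lay below both cKO libraries, and no interval reached that of WT. The fold change of the means was 1.47 and the fitted log2 change 0.57 (SE 0.10), with an adjusted p of 2.2e-05 by edgeR. Over all kept cells the values were 51.7, 57.8 and 34.8 CPM, again with WT below both, for a log2 change of 0.63 (SE 0.11, edgeR adjusted p = 0.0012). That call over all cells was lost with looser cell limits of 500 genes and 25% mitochondrial UMIs (0.55, edgeR adjusted p = 0.12). A sum over several clusters does not by itself separate a shift in their cell numbers from a change of level within them. Cell numbers and levels per cluster are therefore given next for the enterocyte-like cells.

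The value depended on how the 3 enterocyte-like clusters were weighted. Cell numbers, with WT last, were 156, 133 and 110 in the S100g cluster, 376, 289 and 348 in the Dnase1 cluster, and 254, 152 and 219 in the Ms4a18 cluster. The S100g cluster, where Slc40a1 was highest, was thus a smaller share of these cells in WT than in either cKO library. Whether this share differed beyond the spread between animals was not tested. With equal weights, Slc40a1 stood at 136, 139 and 114 CPM, and the mean log2 ratio of CPM + 5 was 0.26 in place of 0.52. Within the Ms4a18 cluster the levels were 69.2, 73.6 and 43.9 CPM, WT being below both, and the change in that cluster alone passed (log2 change 0.70, SE 0.13, edgeR adjusted p = 2.2e-05). Within the S100g cluster (324, 316 and 278 CPM) WT was also below both, but the change of 0.22 (SE 0.12) did not pass (edgeR adjusted p = 0.42). Within the Dnase1 cluster the levels were 14.9, 26.6 and 19.9 CPM, so that the WT value fell between those of the cKO libraries, for a log2 change of 0.07 (SE 0.42, edgeR adjusted p = 0.97). Without the S100g cluster the remaining enterocyte-like cells gave 0.49 (edgeR adjusted p = 0.026). The tests within clusters were added after the data were seen.

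Over the other clusters the order of the libraries varied. WT was lowest in the Car4, TA-like and ISC-like clusters, where Slc40a1 was at 67.8, 81.6 and 54.9 CPM, 14.4, 17.6 and 9.35, and 7.84, 11.4 and 6.11, and also in the goblet-like, Gm42418 and Ghrl clusters. WT was above both in the Paneth-like cluster (1.39, 0.787 and 3.06 CPM) and between them in the enteroendocrine-like cluster (2.39, 19.98 and 3.93), and in the tuft-like cluster it was at 0, as was Arid3a cKO 1. A WT value below both cKO values was shared by 34.4%, 39.4% and 39.8% of the genes tested in the Car4, TA-like and ISC-like clusters. The shares were 36.6%, 65.6% and 30.2% in the goblet-like, Gm42418 and Ghrl clusters, and 35.9% and 34.5% in the Ms4a18 and S100g clusters. This order alone is thus common. In ISC-like and TA-like cells together Slc40a1 stood at 11.5, 15.2 and 8.00 CPM, under the limit for testing. Without that limit the fit called it, with a log2 change of 0.73 (edgeR adjusted p = 0.022). Goblet-like cells had 12.3, 6.34 and 5.85 CPM, also with WT below both, though Arid3a cKO 2 lay near WT. In ISC-like cells Arid3a cKO 2 had 11.4 CPM against 6.11 in WT. The goblet-like values thus do not decide whether the ISC-like counts are background. As Slc40a1 lay under the limit for testing, no change of expression in ISC-like cells was read from that call. TA-like cells lay above the goblet-like level in each library but were not tested apart from ISC-like cells, so no change was read there either.

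Of 8 genes of the proximal small intestine, all tested in enterocyte-like cells, 2 were called higher beside Slc40a1 and none lower (background 2.47% higher), and WT was below both cKO libraries in 6 (background 34%). S100g was at 2327, 3305 and 1260 CPM (log2 change 1.18, edgeR adjusted p = 0.00012), and Pdx1, a transcription factor of the duodenum, at 37.2, 35.5 and 19.9 CPM (0.89, edgeR adjusted p = 3.5e-08). The others did not pass: Akp3 was at 73.0, 111 and 28.6 CPM (1.70, edgeR adjusted p = 0.51), Onecut2, Fabp1 and Apoa4 had folds of the means of 1.04, 1.05 and 1.16, and Gata4 and Lct had 0.849 and 0.928. Of 6 genes of the distal small intestine 3 could be tested, none was called, and WT was above both in all 3, as it was in 41.6% of all genes tested. Their part in the Slc40a1 result was not tested, and a difference in the stretch of intestine sampled cannot be told apart from a change in expression. Goblet cell markers summed over 11 genes were at 433, 667 and 1102 CPM in enterocyte-like cells, lower in both cKO libraries, and their part was not tested. Summed immune cell markers were at 0.435 to 0.677 CPM over 8 genes (Ptprc at 0 in 2 of the 3 libraries), summed macrophage markers at 0.193 to 0.358 CPM over 6 genes, and all 5 erythroid markers were at 0.

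In enterocyte-like cells Tfrc stood at 39.0 CPM in Arid3a cKO 1 (36.6 to 41.5). Arid3a cKO 2 had 28.7 CPM (26.4 to 31.2), and the WT library 23.1 (21.1 to 25.3). WT was below both, and Arid3a cKO 2 lay nearer to WT than to the other cKO library. The log2 change was 0.57 (SE 0.15, edgeR adjusted p = 0.022). This call was lost in 5 of the 9 other settings that gave a value, with adjusted p from 2.5e-05 to 0.37 over them. Within clusters, Tfrc was at 78.3, 66.3 and 45.1 CPM in the Ms4a18 cluster, 21.6, 15.8 and 12.7 in the Dnase1 cluster and 11.4, 9.88 and 10.7 in the S100g cluster. WT was thus below both in the first and second of these and between them in the last. The Ms4a18 cluster alone gave a log2 change of 0.69 (edgeR adjusted p = 2.5e-05).

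In ISC-like and TA-like cells, where Tfrc was highest, the libraries lay close together. Summed, these cells had 200.4, 194 and 195 CPM, the WT value being between the others, for a log2 change of -0.00 (SE 0.12, edgeR adjusted p = 0.9995). The Car4 cluster had 204, 176 and 150 CPM. The difference in effect between enterocyte-like cells and ISC-like plus TA-like cells was 0.57 (SE 0.15, edgeR adjusted p = 0.043), in a fit with library as a block in which 1.64% of genes were called in either direction and 1.14% as higher in enterocyte-like cells. With DESeq2's size factors in place of TMM scaling it was 0.56 with an edgeR adjusted p of 0.13, and with the looser cell limits 0.28 with an edgeR adjusted p of 0.9987. Under the looser limits the cells were clustered anew, and the enterocyte-like set was a different one. A cluster led by Ms4a18 and Car4 (1398 cells) then stayed unnamed and was left out. Another led by Gm26917 (1117 cells, median 19.8% mitochondrial UMIs) was counted as enterocyte-like.

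Fth1 was higher in both cKO libraries without passing the test. Enterocyte-like cells had 23660, 28119 and 20574 CPM, a fold change of the means of 1.26 (log2 change 0.35, SE 0.27, edgeR adjusted p = 0.53). Arid3a cKO 1 lay nearer to WT than to Arid3a cKO 2. In all kept cells the values were 12971, 14298 and 10404 CPM, with WT below both (log2 change 0.37, SE 0.12, edgeR adjusted p = 0.12). Ftl1 was at 1602, 1687 and 1548 CPM in enterocyte-like cells (log2 change 0.11, edgeR adjusted p = 0.81). Ftl1-ps1, the copy that may take some of its reads, was at 38.8, 44.5 and 35.8 CPM.

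The remaining transport genes showed no call. Slc11a2 was at 48.6, 42.4 and 52.7 CPM in enterocyte-like cells, WT being above both (log2 change -0.19, SE 0.11, edgeR adjusted p = 0.34). In ISC-like and TA-like cells it was at 23.3, 21.8 and 19.8 CPM, WT being below both (0.17, SE 0.16, edgeR adjusted p = 0.96), and the difference between the cell sets, -0.36 (SE 0.17), did not pass (edgeR adjusted p = 0.48). Heph was at 122, 125 and 131 CPM in enterocyte-like cells (-0.06, SE 0.10, edgeR adjusted p = 0.82). Its values in the S100g cluster were 137, 131 and 156 CPM, with WT above both. Hmox1 and Cybrd1 were too low to test. Cybrd1 had 13, 47 and 2 UMIs in enterocyte-like cells, and of the 47 in Arid3a cKO 2 single cells held 25 and 13, so no direction was read.

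**Figure D3:**
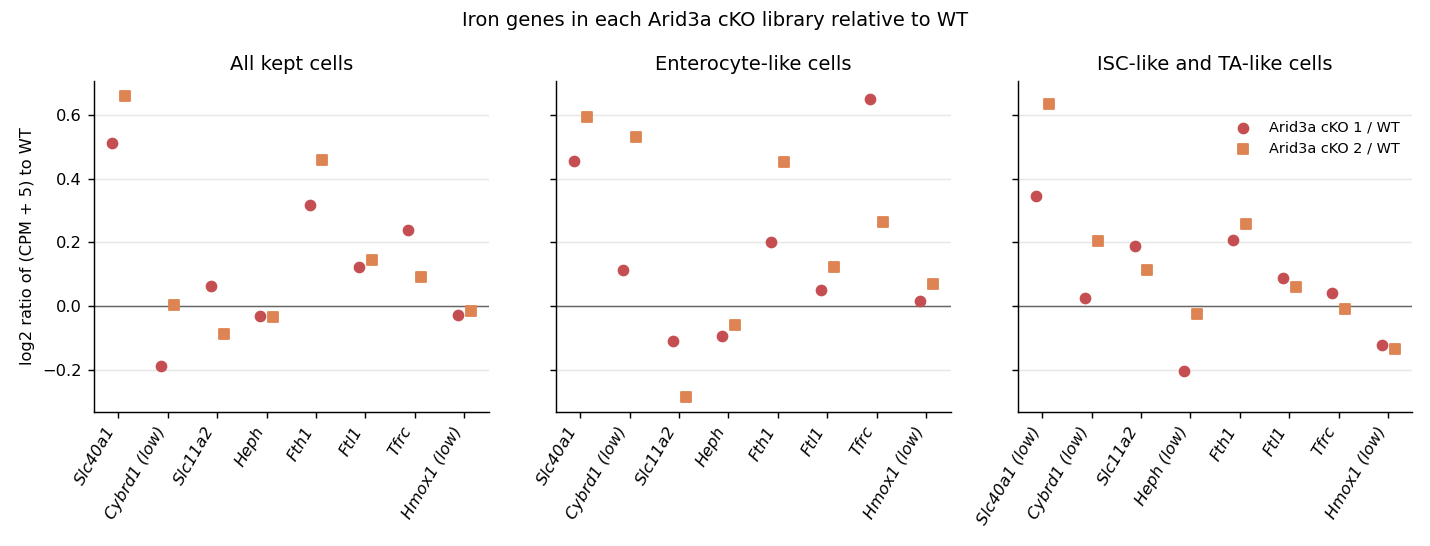
Log2 ratio of (CPM + 5) in each Arid3a cKO library to WT for the 8 members, in all kept cells, enterocyte-like cells and ISC-like plus TA-like cells. Genes marked low had a mean under 20 CPM and were not tested; the Slc40a1 points lie above 0 in each panel, and those of Tfrc lie clearly above 0 in enterocyte-like cells and close to 0 in ISC-like plus TA-like cells.

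Of the tested members WT was below both cKO libraries in 4 of 6 in enterocyte-like cells, 4 of 6 in all kept cells and 3 of 4 in ISC-like and TA-like cells. The background shares were 34%, 43% and 38.8% of all genes tested. The members' median log2 ratios were 0.21, 0.15 and 0.11, beside medians over all genes of -0.02, 0.02 and 0.02. No member reached a log2 ratio of 1 in both cKO libraries, which 0.36%, 0.356% and 0.196% of genes did in either direction.

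**Figure D4:**
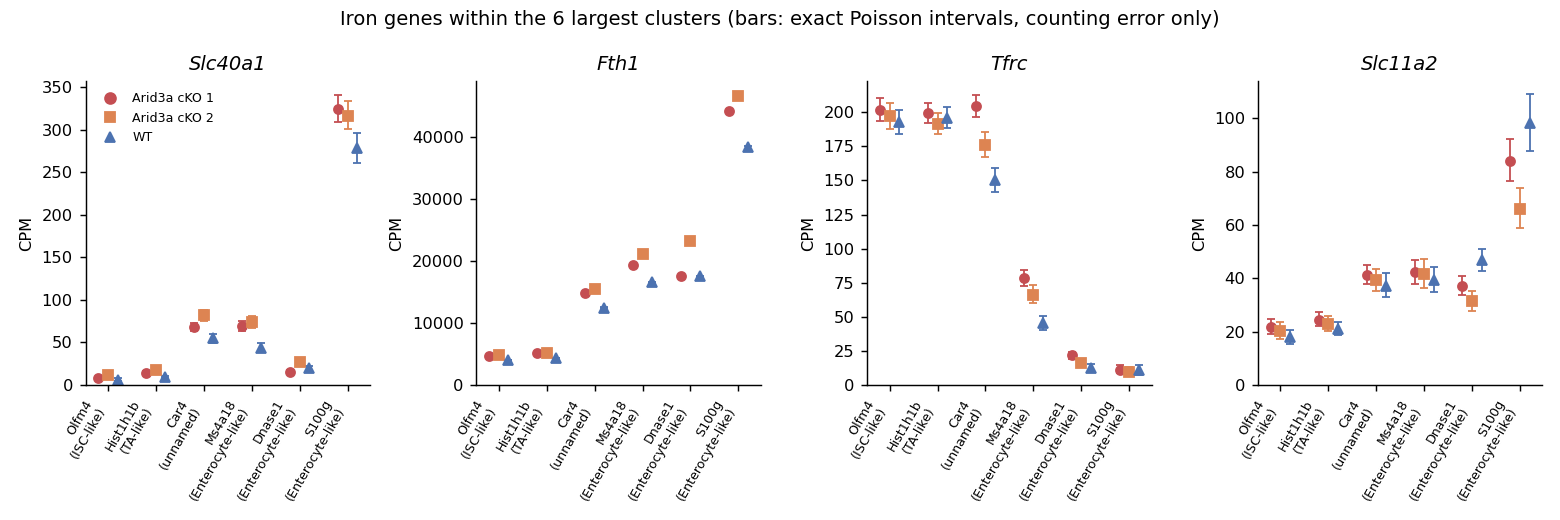
Levels of Slc40a1, Fth1, Tfrc and Slc11a2 in CPM within the 6 largest clusters, with 1 point per library and bars for 95% Poisson intervals that cover counting error only. WT was below both Arid3a cKO libraries for Slc40a1 in the Ms4a18 (43.9 against 69.2 and 73.6 CPM) and S100g clusters, and between them in the Dnase1 cluster.

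The wider iron and haem pathway moved little. Of 55 other genes listed for haem transport and synthesis, ferritin turnover, iron sensing and iron-sulphur cluster assembly, 53 were matched. In enterocyte-like cells 34 could be tested, of which 1 was called higher and none lower (background 2.47% higher, 5.6% either way). A single call among 34 is near that background, so it is not read as a result about the pathway. That gene was Iscu, the scaffold on which iron-sulphur clusters are assembled, at 79.0, 78.8 and 62.3 CPM (log2 change 0.36, SE 0.10, edgeR adjusted p = 0.016). This call was lost in 4 of 11 other settings. Its partner chaperone Hscb was at 27.9, 27.3 and 21.7 CPM and did not pass (edgeR adjusted p = 0.10). The RNA-binding iron regulatory proteins that read the IREs, Aco1 (125, 111 and 134 CPM) and Ireb2 (36.5, 41.9 and 36.3 CPM), were not called. Ncoa4, the receptor that delivers ferritin for breakdown, was at 61.3, 71.5 and 56.9 CPM and was not called either.

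The oxygen-sensing regulators known to act on iron uptake genes were likewise not called in enterocyte-like cells. Epas1 (HIF-2α) was at 23.0, 22.9 and 23.8 CPM, and Hif1a at 31.9, 27.3 and 37.9 CPM (log2 change -0.34, edgeR adjusted p = 0.061). Of 7 hypoxia target genes 3 could be tested and Vegfa was lower (34.8, 34.0 and 44.5 CPM, log2 change -0.35, edgeR adjusted p = 0.030). The others tested went the other way and did not pass. Ndrg1 was at 43.7, 30.3 and 31.4 CPM (0.26) and Egln3 at 26.0, 21.4 and 20.4 CPM (0.23). The median log2 ratio of the tested hypoxia genes was 0.17. Over all genes, 148 of the 4728 tested in these cells were called lower. Nfe2l2 (NRF2), a regulator of ferritin and haem oxygenase genes, was at 303, 285 and 358 CPM (-0.27, edgeR adjusted p = 0.16), and none of 4 tested targets of NRF2 was called. Slc46a1, which carries folate and haem, was at 124, 171 and 123 CPM.

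In all kept cells 33 of the 53 pathway genes were tested and in ISC-like and TA-like cells 32, and none was called in either. At an unadjusted p under 0.05 there were 3 of 33 and 0 of 32, beside 713 of 5336 and 447 of 5602 over all genes. In enterocyte-like cells there were 6 of 34, beside 831 of 4728. DESeq2's Wald test called 0 in each of the 3 cell sets. The widest shifts shared by both cKO libraries in all kept cells included log2 changes of 0.27 for Hscb, 0.19 for Nfs1, 0.18 for Abcg2 and 0.17 for Alas1 upward, and -0.23 for Mon1a, -0.22 for Hif1a and -0.18 for Slc39a14 downward, none past the test by edgeR. In ISC-like and TA-like cells they included 0.16 for Hscb, 0.10 for Abcb8 and 0.08 for Egln2 upward, and -0.14 for Fbxl5, -0.14 for Slc25a37, -0.13 for Pcbp1 and -0.08 for Fech downward. The median log2 ratio of the tested pathway genes was 0.01 in enterocyte-like cells. Transcripts of the hormone hepcidin (Hamp, Hamp2) and of the ferroxidase ceruloplasmin (Cp) stayed under 1 CPM in every library.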

How the data were processed

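Libraries were grouped by the labels' genotypes. The deposited matrices hold raw UMI counts that the authors made with Cell Ranger. The counting build is not given in the sources used here, and the submitters' processing notes list human builds. Gene identifiers were matched to GENCODE M21 (GRCm38). Cells, doublets included, were integrated and clustered in Seurat 5.3.0 (R 4.3.3; canonical correlation analysis, 30 components, resolution 0.3) with members and pathway genes left out. Names needed at least 3 class markers among a cluster's top 50 genes by fold, or at least 50% of the markers raised, a rule set once clusters were known.

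Per library, UMI counts were summed over each cell set and tested with edgeR 4.0.16 (robust quasi-likelihood, TMM, mean of at least 20 CPM, Benjamini-Hochberg adjusted p under 0.05), 2 libraries against 1. Cells were not treated as replicates. Log2 ratios used a pseudocount of 5 CPM, which understates changes of low genes. Alternatives were DESeq2 1.42.0, its scaling, no filter, other genes left out, other cell limits, doublet removal, another resolution, another pseudocount and each replicate left out.

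Named were all 8 members, every pathway gene called or separated (otherwise up to 4 per direction, by the smaller of both log2 ratios), and the 3 genes most like each member. Members and lists were chosen with earlier results of these data known. Flvcr1 and Flvcr2 were not analysed here. The values of 2 further pathway genes that the rule picked are not reported here.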

Additional observations from a re-analysis of the deposited data

Results flagged for a closer look

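The effect of Arid3a loss on Tfrc differed between cell sets: the log2 change in enterocyte-like cells exceeded that in ISC-like and TA-like cells by 0.57 (SE 0.15, edgeR adjusted p = 0.043). This was the only member past that test. It did not pass with other scaling or with other cell limits, which also changed the clusters counted as enterocyte-like.

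The barcodes removed by the cell limits, most of them for a high mitochondrial share, held some members at levels above those of the removed WT barcodes. A member was flagged in a cKO library at 1.5-fold WT or more with Poisson intervals that did not overlap. Slc40a1 stood at 58.6 CPM in the removed barcodes of Arid3a cKO 1 and 89.9 in those of Arid3a cKO 2, against 38.3 in WT, or 1.53-fold and 2.35-fold. Cybrd1 stood at 9.99 CPM in the removed barcodes of Arid3a cKO 2 (364 UMIs) against 1.67 in WT (111 UMIs), while in Arid3a cKO 1 it was at 0.714 (25 UMIs), below WT. Fth1 stood at 3161 CPM in those of Arid3a cKO 2 against 2093 in WT, or 1.51-fold, and 2856 in Arid3a cKO 1. Slc11a2 did not follow, at 36.8 and 33.7 CPM in the cKO libraries against 34.1 in WT. Under the flag, Ftl1 was 1.45-fold and 1.41-fold, Tfrc 1.46-fold and 1.15-fold, and Heph 1.07-fold and 1.39-fold over WT. The same ratios were not computed over all genes, so the flagged rises are not read as particular to these members. These are single libraries, and no test was made on them.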

How the results depend on the processing

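With 2 libraries against 1 the tests have 1 residual degree of freedom, and leaving out a library leaves no test. Differences larger than their SEs could also fail to pass, as for Slc11a2 between the cell sets (-0.36, SE 0.17). A difference that was not called is thus not shown to be absent. No paired analysis was possible because cKO and WT have just 1 replicate number in common. The number of members called was 1 in all kept cells, 2 in enterocyte-like cells, 0 in ISC-like plus TA-like cells and 1 for the difference between cell sets. Without the filter on low counts these were 2 (Fth1 added, edgeR adjusted p = 0.0071), 3 (Cybrd1 added, which rests on single cells) and 1 (Slc40a1). With cell limits of 500 genes and 25% mitochondrial UMIs they were 0, 2 (Slc40a1 and Fth1, at a log2 change of 0.50 and edgeR adjusted p = 0.030), 0 and, for the difference, 0, and DESeq2's size factors gave 0 for that difference. In enterocyte-like cells the count was 1 with DESeq2's size factors, 1 with its Wald test, 1 at resolution 0.8 and 1 without the S100g cluster, with 0 in the Dnase1 and 0 in the S100g cluster alone. It was 2 (Slc40a1 and Tfrc) in the Ms4a18 cluster alone. Signs of uncalled changes turned for Slc11a2 (0.021 in all cells without the filter, 0.089 in the Ms4a18 cluster alone), Heph (0.0033 in enterocyte-like cells with looser cell limits) and Tfrc in ISC-like plus TA-like cells (0.016 without the filter, 0.0011 with looser limits, 0.0092 at resolution 0.8). Leaving out 1 cKO library gave log2 ratios of 0.45 to 0.59 for Slc40a1 and 0.26 to 0.65 for Tfrc in enterocyte-like cells, and 0.51 to 0.66 for Slc40a1 in all kept cells. Over all genes, 114 were called in all kept cells, against 583 without the filter, 45 with looser cell limits and 60 without the top 5% of doublet scores. In enterocyte-like cells 265 were called, against 73 by DESeq2's Wald test, 86 in the Dnase1 and 147 in the S100g cluster alone. In the Ms4a18 cluster alone 68 of 4872 genes tested were called higher and 116 lower. Without the filter these were 182 and 213 of 20411, and with looser cell limits 162 and 143 of 4805. In ISC-like plus TA-like cells 119 were called, against 51 by DESeq2's Wald test, and for the difference 89, against 33 with DESeq2's size factors and 34 with looser cell limits. Pathway genes called in enterocyte-like cells numbered 1, against 0 by DESeq2's Wald test and in the Dnase1 and Ms4a18 clusters alone, 3 with looser cell limits and 2 without the top 5% of doublet scores, and 1 was called in ISC-like plus TA-like cells without the filter. The looser cell limits also changed which clusters were counted as enterocyte-like. The cause of these changes was not tested. Settings that used single clusters or left out the S100g cluster were chosen after seeing the data.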

Other observations

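Cybrd1 was found in bursts. Barcodes with at least 10 of its UMIs numbered 0 in Arid3a cKO 1, where the most in a kept cell was 4, 3 among the kept cells of Arid3a cKO 2 and 1 among those of WT. The kept cells of Arid3a cKO 2 had 13 UMIs in an S100g-cluster cell, 25 in a Dnase1-cluster cell and 20 in a TA-like cell. The WT cell, with 51, was in the enteroendocrine-like cluster and carried 214 UMIs of Chgb and 49 of Sct, genes of hormone-secreting cells. Among the barcodes removed by the cell limits there were 8 more in Arid3a cKO 2, with 197 of 364 Cybrd1 UMIs (54.1%), and 3 in WT, with 46 of 111 (41.4%).

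Ada, which encodes adenosine deaminase of the duodenal villus, was high in these same barcodes and was picked out after its values were seen. Its level in them was 6995 CPM in the kept cells and 8650 CPM in the removed barcodes of Arid3a cKO 2, and 14121 and 13843 CPM in WT. Over all barcodes of the same libraries and kinds it was 25.7, 147, 12.4 and 68.0 CPM. Of the 3 kept cells of Arid3a cKO 2, 1 held 1 Ada UMI and the others 718 and 186. Slc40a1 was at 301 and 430 CPM in the kept and removed barcodes of Arid3a cKO 2 and had no UMI in those of WT.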
